A study of Vitis labrusca x Vitis vinifera with 9 samples.

Results

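The 4 genes described here are grapevine genes for proteins of seed desiccation and of cold: GSVIVT00029315001, named protein EMB-1-like, GSVIVT00021718001, named embryonic protein DC-8-like, GSVIVT00034564001, a late embryogenesis abundant (LEA) protein, and GSVIVT00023117001, the low temperature-induced protein lt101.2. They are 4 of the 30128 genes with a probe on the array, and each has 1 probe. They were chosen with their ratios after the treatments known, so those ratios are given as a description. Their calls in the fit over all probes are a description too, and no test of the 4 genes is drawn on. The annotated Arabidopsis homologs are AT2G40170 for EMB-1-like, which is EM6, AT2G36640 for DC-8-like, which is ECP63, and AT3G15670 for GSVIVT00034564001, whereas none is given for lt101.2, which carries an annotation as an integral membrane protein.

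LEA proteins are very hydrophilic, mostly unfolded proteins that accumulate as seeds mature and dry, and that protect membranes and enzymes when water is withdrawn. EMB-1 and DC-8 were described in carrot embryos, EMB-1 being of the Em type and DC-8 of the type with many repeats of a short helix-forming motif. In Arabidopsis seeds, genes of this kind are switched on by abscisic acid (ABA) through transcription factors such as ABI5, with FUS3 among the master regulators of seed maturation. Proteins of the lt101 type, first known from cold-treated grasses, are very small hydrophobic membrane proteins of the same family as LTI6 in rice and RCI2 in Arabidopsis. Buds, like seeds, pass through a resting state, and LEA-type genes are known from resting buds of woody plants as well.

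Buds came from 5-year-old field-grown plants of a Vitis labrusca x Vitis vinifera hybrid and were taken at node 8 from the cane base, 24 h after treatment, with buds of 10 single nodes per sample. The treatments were pruning with water (P), 1% hydrogen cyanamide (HC), a chemical that breaks bud dormancy, and pruning with 1% hydrogen cyanamide (PHC), each on 3 arrays. The control on all 9 arrays was buds of unpruned canes sprayed with water. By their labels the canes of the HC arrays were pruned, whereas the study's methods say that they were not. Pruned HC canes would have had the same treatment as PHC, which the titles and the methods list apart. HC is therefore read here as the methods give it. The labels call the replicates biological, and nothing shows whether they came from separate vines.

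Treated RNA was labeled with Cy5 and control RNA with Cy3 on each array, with 0 arrays of the opposite dye order, and any bias of a probe toward one dye therefore remains in its ratio. The value for each gene was the log2 ratio of Cy5 to Cy3, where -1 is a halving of the signal relative to the control. In a bulk sample of buds, fewer cells with a transcript and less of it per cell cannot be told apart. Per array, the share of probes well above background was 80.6 to 88.9% for the control channel and 83.6 to 90.3% for the treated one. The 4 genes were well above background in both channels on all 9 arrays. The median Cy3 signal of an array was 135 to 271, and the 3 arrays of a replicate number had nearly the same control signal for each of the 4 genes, and whether these controls were separate samples is not given in the sources used here. Tests therefore measure only the spread between these samples, which may be technical.

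EMB-1-like transcript was far lower in treated than in control buds, most of all after the combined treatment. Its log2 ratios were -2.18, -2.09 and -1.72 on the P arrays. They were -2.12, -3.00 and -1.80 on the HC arrays. They were -3.80, -4.36 and -5.01 on the PHC arrays. All 9 ratios were below 0, the P and HC arrays overlapped, and the 3 PHC arrays lay below all the others. Its mean log2 change was -1.995 ± 0.24 with P, -2.31 ± 0.62 with HC and -4.39 ± 0.61 with PHC (SD, n = 3). On the linear scale these means leave 25.1, 20.2 and 4.76% of the control signal. The probe was bright, with a net Cy3 signal (mean signal minus background) between 307 and 689 times its background. Its net Cy5 signal was still 25.1 to 36.2 times its background after PHC.

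The DC-8-like gene was also lower in most treated buds, and the HC buds varied more than the others. Its log2 ratios were -1.30, -1.94 and -1.71 on the P arrays. They were 0.26, -1.60 and -1.71 on the HC arrays. They were -3.02, -3.72 and -4.11 on the PHC arrays. The PHC arrays again lay below all the others, and HC replicate 1 was the one array of the 9 on which the treated signal was not lower. The mean for DC-8-like was -1.65 ± 0.33 with P, -1.02 ± 1.11 with HC and -3.62 ± 0.55 with PHC (log2, SD, n = 3), which leaves 31.9, 49.4 and 8.16% of the control signal. Without HC replicate 1 the mean after HC was -1.66. This probe was dim: its Cy3 signal exceeded the background by 1.45 to 7.70 times that background. After PHC its Cy5 signal exceeded the background by only 0.26 to 0.56 of that background.

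HC replicate 1 stood apart for DC-8-like in the treated channel. Scaled to the array's median net signal (mean signal minus background) in the same channel, its Cy5 signal was 0.537 on that array, against 0.254 and 0.305 on the other HC arrays. Its Cy3 signal was 0.437 to 0.459 on the 3 arrays numbered 1, against 0.830 to 0.921 on the 6 others. Thus the control level was low in replicate 1 of each treatment, and the treated level was high in HC replicate 1 alone. The 721 tested probes with a Cy3 signal within 10% of that of DC-8-like on this array had a median log2 ratio of 0.00 and a range from -1.32 to 1.26 between their 5th and 95th percentiles, which holds the 0.26 of DC-8-like. The part of noise at this signal in that value was not tested.

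GSVIVT00034564001 had the smallest mean change of the 4 genes after each treatment. Its log2 ratios were -1.25, -1.34 and -0.99 on the P arrays. They were 0.56, -1.29 and -0.36 on the HC arrays. They were -2.49, -2.83 and -3.52 on the PHC arrays. As with DC-8-like, the HC arrays were spread over both sides of 0, with replicate 1 the highest, and the PHC arrays lay below all the others. The mean for GSVIVT00034564001 was -1.19 ± 0.18 with P, -0.36 ± 0.92 with HC and -2.95 ± 0.52 with PHC (log2, SD, n = 3), which leaves 43.8, 77.7 and 12.98% of the control signal. The mean after HC was smaller than its SD, and it was -0.82 without HC replicate 1 and 0.10 without HC replicate 2. Here the scaled Cy3 signal of the arrays numbered 1 (0.768 to 0.784) was close to that of the arrays numbered 3 (0.793 to 0.8004), and the scaled Cy5 signal of HC replicate 1 (1.13) was above the 0.379 and 0.645 of the other HC arrays. The probe was dim as well, with a Cy5 signal that exceeded the background by 0.71 to 1.05 of that background after PHC.

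The low temperature-induced gene lt101.2 was lower in every treated sample. Its log2 ratios were -1.46, -1.22 and -1.07 on the P arrays. They were -1.85, -1.85 and -1.45 on the HC arrays. They were -3.70, -3.39 and -4.23 on the PHC arrays. The groups were tight, the P and HC arrays just overlapped, and the PHC arrays lay below all the others. The mean for lt101.2 was -1.25 ± 0.20 with P, -1.72 ± 0.23 with HC and -3.77 ± 0.43 with PHC (log2, SD, n = 3), which leaves 42.1, 30.4 and 7.31% of the control signal. Its HC arrays had the smallest SD of the 4 genes, and HC replicate 1 did not stand apart for lt101.2 or EMB-1-like as it did for the other two. The probe was bright, with a net Cy5 signal 16.5 to 17.97 times its background after PHC.

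**Figure D1:**
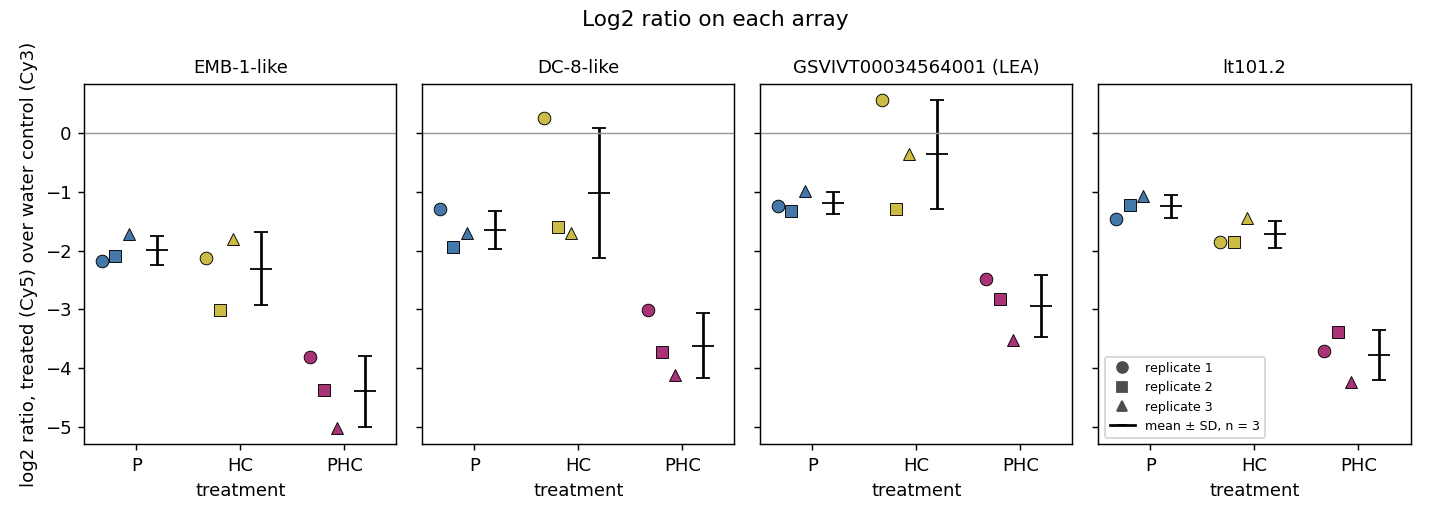
Log2 ratio of treated (Cy5) over water control (Cy3) signal on each of the 9 arrays for the 4 genes (points, shaped by replicate number), with the mean and SD over 3 arrays (bars), by treatment. The PHC points lie below the P and HC points for each gene, from -2.49 down to -5.01, and the HC points of DC-8-like and GSVIVT00034564001 reach above 0 on replicate 1.

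The levels in the control buds themselves differed more between replicate numbers than between treatments. For EMB-1-like the scaled Cy3 signal varied 1.03 to 1.08-fold among the 3 arrays of a number and 1.60-fold over all 9 arrays. For lt101.2 it varied 1.01 to 1.12-fold within a number and 1.87-fold over all arrays, being highest on the arrays numbered 1. For DC-8-like the figures were 1.05 to 1.11-fold and 2.105-fold, and for GSVIVT00034564001 they were 1.01 to 1.05-fold and 1.31-fold. The controls of a number were therefore alike on the 3 arrays that carried them, and the lower ratios after PHC were found in the treated channel.

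The treated channel alone gave the same order. The scaled Cy5 signal of EMB-1-like was 16.7 to 18.8 after P, 9.46 to 23.4 after HC and 1.87 to 6.33 after PHC. For lt101.2 it was 8.73 to 14.0, 6.41 to 10.9 and 1.38 to 2.92. These are the bright probes, and their 3 PHC arrays lay below the 6 others. For DC-8-like the scaled Cy5 signal was 0.168 to 0.241 after P, 0.254 to 0.537 after HC and 0.0403 to 0.0592 after PHC. For GSVIVT00034564001 it was 0.310 to 0.390, 0.379 to 1.13 and 0.0590 to 0.125. The order from lowest to highest was thus PHC and then the single treatments for all 4 genes, with P and HC overlapping for EMB-1-like, lt101.2 and GSVIVT00034564001, and with all HC arrays above all P arrays for DC-8-like.

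**Figure D2:**
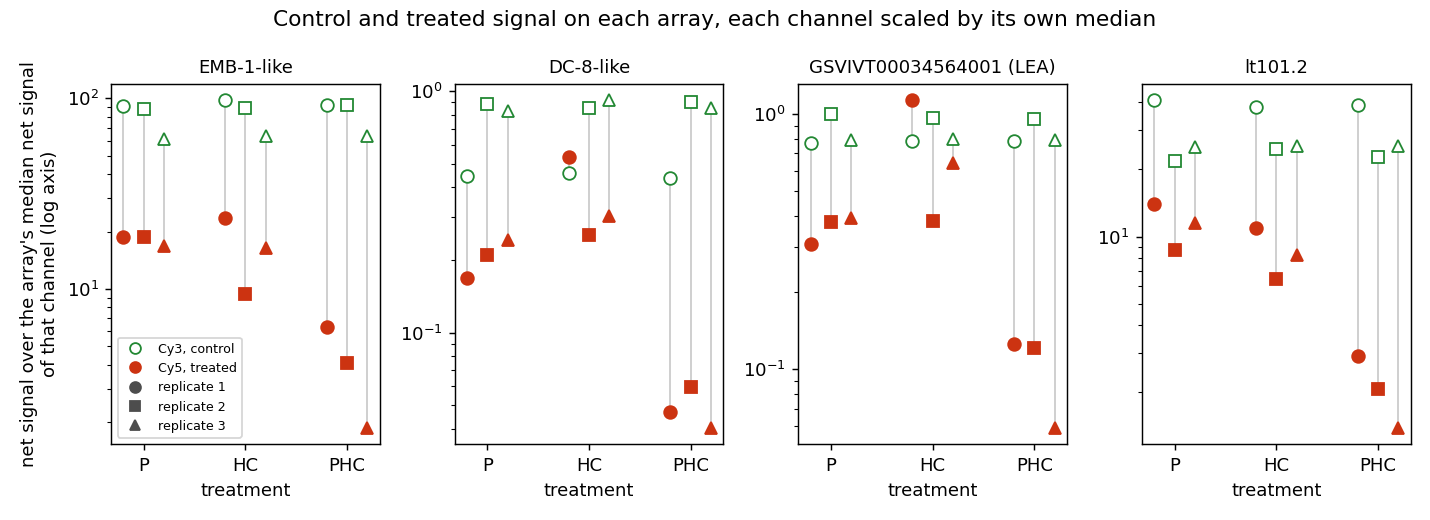
Net signal of the 4 genes on each array, divided by the array's median net signal in the same channel (log axis, own scale per gene), with open symbols for the control (Cy3) and filled symbols for the treated buds (Cy5), joined within an array and shaped by replicate number. Control signals of a replicate number are nearly level across treatments, and the PHC treated signals are the lowest of each gene.

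In the fit over all tested probes, a gene was called lower if it was at least 2-fold below the control and its p, adjusted by Benjamini-Hochberg, was under 0.05. All 4 genes were called lower after P, where 0.572% of the 26395 tested probes were lower and 2.75% higher, and after PHC, where 11.7% were lower and 13.5% higher. After HC, 2 of the 4 were called lower, EMB-1-like and lt101.2, where 4.75% of the tested probes were lower and 5.16% higher. Those 2 genes were called lower after each of the 3 treatments, as were 0.258% of the tested probes. Since the genes were chosen on these same ratios, nothing is read from the counts. After P the count fell to 2 of 4, EMB-1-like and lt101.2, when any P array was left out or with normexp and loess. It was also 2 with normexp and median centring, where EMB-1-like and DC-8-like were called and lt101.2 was not. Without PHC replicate 2, or with no filter on dim probes, it was 3, without GSVIVT00034564001. After HC it rose to 3 of 4, with DC-8-like, without HC replicate 1 and also with the replicate number as a block. Over all probes, P gave 151 lower and 725 higher, HC gave 1254 and 1362, and PHC gave 3083 and 3552. With a normexp background correction and each array centred on its median instead, these were 39 and 875, 297 and 1350, and 747 and 5486. With normexp and loess, 466 were lower and 1046 higher after HC.

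The combined treatment left less transcript than either single treatment did. The log2 difference of PHC minus P was -2.40 ± 0.38 (SE) for EMB-1-like, -1.96 ± 0.37 for DC-8-like, -1.75 ± 0.32 for GSVIVT00034564001 and -2.52 ± 0.27 for lt101.2. In fold, the ratio after PHC was 3.37 to 5.75 times lower than after P. With normexp and loess, PHC minus P was only -0.77 for DC-8-like and -0.92 for GSVIVT00034564001, and with normexp and median centring it was -0.83 and -0.97. That of PHC minus HC was -2.08 ± 0.50 for EMB-1-like, -2.60 ± 0.72 for DC-8-like, -2.58 ± 0.61 for GSVIVT00034564001 and -2.05 ± 0.28 for lt101.2, or 4.15 to 6.06 times in fold. With normexp and loess, PHC minus HC was -1.10 for DC-8-like and -1.45 for GSVIVT00034564001, and with median centring it was -1.33, -1.60 and, for lt101.2, -1.51. As the genes were chosen on these ratios, the counts of calls are a description and support nothing. All 4 genes were called lower in PHC than in P, where 4.82% of the tested probes were lower and 4.85% higher, and in PHC than in HC, where 5.33% were lower and 8.55% higher. Against P the count was 2 of 4, EMB-1-like and lt101.2, with either normexp setting, when any P array was left out, and without PHC replicate 2 or 3. Against HC it was 3 of 4 with normexp and loess, without DC-8-like. For all 4 genes the 3 PHC arrays lay below the 3 P arrays, as they did for 25.5% of the tested probes, and below the 3 HC arrays, as they did for 19.7%. The difference of HC minus P was -0.31 ± 0.39 for EMB-1-like, 0.63 ± 0.67 for DC-8-like, 0.83 ± 0.54 for GSVIVT00034564001 and -0.47 ± 0.18 for lt101.2, and the P and HC arrays overlapped for each. These differences may share control RNA, and their SE covers the spread of the 3 arrays of each treatment only.

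On the log2 scale, the change of EMB-1-like after PHC (-4.39) was close to the sum of its changes after P and HC (-4.30), with a difference of -0.09 ± 0.52 (SE). For the others the same difference was -0.80 ± 0.30 for lt101.2, -0.95 ± 0.74 for DC-8-like and -1.39 ± 0.62 for GSVIVT00034564001. The sums of the last 2 genes include HC replicate 1, whose ratios were above 0. All these differences come from the deposited ratios. With normexp and loess, DC-8-like had -1.04 (P), -0.70 (HC) and -1.81 (PHC). With normexp and median centring it had -1.19, -0.69 and -2.02. Under both settings its PHC change was close to the sum. GSVIVT00034564001 had -0.78, -0.25 and -1.70 with normexp and loess, still below the sum but by less. No test was made of the differences from the sum, since the genes were chosen by the same values.

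The 4 genes fell into a bright and a dim pair by how they followed each other over the 9 arrays. Pearson's r of the log2 ratios was 0.96 for EMB-1-like with lt101.2 and 0.96 for DC-8-like with GSVIVT00034564001, against 0.77 to 0.88 for the 4 pairs across. The 9 points share 3 treatments, which set most of these correlations, and possibly their controls. Against EMB-1-like, lt101.2 ranked 110 among 26340 probes with complete values, GSVIVT00034564001 ranked 981 and DC-8-like 1731, so many other genes followed it as closely or more so. Against DC-8-like, GSVIVT00034564001 ranked 47.

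Other genes had the pattern still more closely. The named gene most like EMB-1-like was GSVIVT00018115001, a putative cysteine proteinase and the first in rank (r = 0.99), followed by GSVIVT00014310001, of the MtN3 family of sugar transporters (r = 0.99), and GSVIVT00017972001, a 11-beta-hydroxysteroid dehydrogenase 1B-like protein (r = 0.99), of the steroleosin family of seed oil bodies. For lt101.2 they were GSVIVT00024606001, a putative histidinol-phosphate aminotransferase of histidine synthesis, and the homeobox-leucine zipper genes ATHB-40 (GSVIVT00024986001) and ATHB-12 (GSVIVT00037197001), with r of 0.99, 0.99 and 0.98. For DC-8-like they were a bromodomain protein (GSVIVT00002889001), a protein kinase (GSVIVT00024443001) and a lipoxygenase (GSVIVT00035067001), each with r of 0.98. For GSVIVT00034564001 they were a LysM domain protein (GSVIVT00022802001), a serine/arginine-rich ribonucleoprotein (GSVIVT00024167001) and a chloroplast lumen protein (GSVIVT00019375001), each with r of 0.98.

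How far the levels fell depended on the background correction for the dim genes. With normexp (offset 50) and loess, the change after PHC was -4.30 for EMB-1-like and -3.59 for lt101.2, close to the deposited ratios. It was -1.81 for DC-8-like and -1.70 for GSVIVT00034564001, so 28.6 and 30.8% of the control signal remained in place of 8.16 and 12.98%. With normexp and median centring, the changes after PHC were -3.70, -3.00, -2.02 and -1.78 in the same order, where the median of all tested probes moved up by 0.23 after PHC and by 0.13 after P. An offset added to both channels draws the ratio of a dim probe toward 0. All 12 mean changes stayed below 0 under either setting, and the sizes for DC-8-like and GSVIVT00034564001 after PHC are thus known only within about these limits. The order of EMB-1-like, lt101.2, DC-8-like and GSVIVT00034564001 from the largest fall to the smallest after PHC was the same under the 3 settings, although neighbours in it differed by less than their SD with the deposited ratios for the middle pair.

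**Figure D3:**
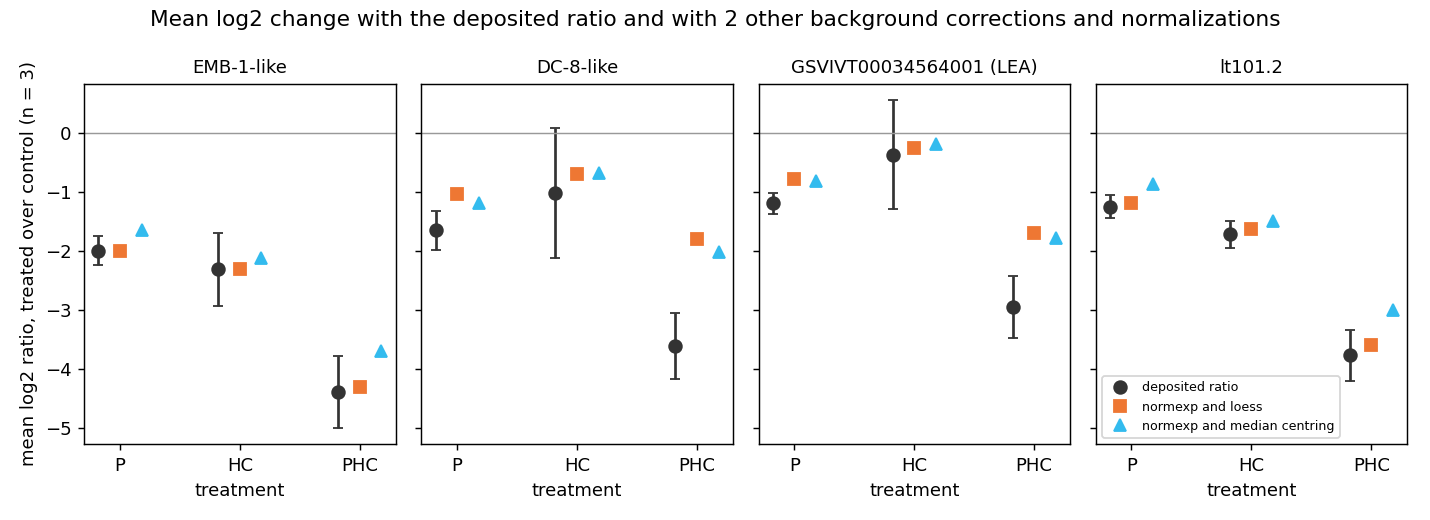
Mean log2 ratio of the 4 genes after P, HC and PHC (n = 3) from the deposited ratio (black, with the SD) and from 2 other background corrections and normalizations (orange, blue). With normexp and loess the values of EMB-1-like and lt101.2 stay near the deposited ratio. The PHC value of DC-8-like then moves from -3.62 to -1.81 and that of GSVIVT00034564001 from -2.95 to -1.70. With normexp and median centring the PHC value of EMB-1-like moves from -4.39 to -3.70 and that of lt101.2 from -3.77 to -3.00.

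Other LEA genes did not move as one. Of 10 others on the array, found by the words of their annotation, 8 were tested in limma. After P 0 were called, with 4 at an unadjusted and 2 at an adjusted p under 0.05. Those 2 changed by less than 2-fold and in opposite directions, GSVIVT00024516001 by -0.71 and GSVIVT00024917001 by 0.42. After HC 1 was lower, and after PHC 3 were lower and 1 was higher. Their median log2 change after PHC was -0.37, against -0.07 for all tested probes. GSVIVT00020000001, a LEA protein with the homolog AT3G22490, had a change of -1.78 ± 0.24 after PHC (adjusted p = 2.41e-05) and of -0.09 ± 0.38 after HC. GSVIVT00038706001, with a LEA domain, had -1.06 ± 0.09 after HC (adjusted p = 0.00255) and -1.51 ± 0.57 after PHC (adjusted p = 0.000144), and GSVIVT00024516001, a LEA-related gene, had -1.15 ± 0.33 after PHC (adjusted p = 0.000101). Neither was called with normexp, at -0.41 and -0.76 after PHC with loess. For GSVIVT00038706001 the Cy5 signal was well above background on 2 HC arrays only. With its treated signal set no lower than the lowest one well above background on each array, its mean after HC was -0.90, less than 2-fold. GSVIVT00024917001, with a LEA domain, rose by 1.74 ± 0.08 after PHC (adjusted p = 7.69e-06) and had 0.42 ± 0.16 after P and -0.44 ± 0.16 after HC (SD, n = 3).

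The other cold-induced gene found by its name was that of hydrophobic protein LTI6A (GSVIVT00022508001), of the same family as lt101.2. It had log2 changes of -1.32 ± 0.30 after P (adjusted p = 0.0263), -2.01 ± 0.66 after HC (adjusted p = 0.00136) and -2.93 ± 0.77 after PHC (adjusted p = 6.36e-05). Its Cy5 signal was well above background on 2 P arrays, 1 HC array and 0 PHC arrays. With the deposited signals its change after PHC is therefore given as a bound, at least 3.94-fold lower. The bound sets the treated signal of each array at the lowest signal that counted as well above background, or at its own where that was higher. With normexp and loess LTI6A had -0.34, -0.48 and -0.56 and was not called, so the bound does not hold under that setting. After P it was not called when any P array was left out. Of 4 more cold genes found by their Arabidopsis homolog (COR413IM1, COR413-PM2, CBF1 and ICE1), 0 changed by 2-fold against the control in limma, although 3 had an unadjusted and also an adjusted p under 0.05 after PHC. Their log2 changes after PHC were -0.91 for COR413IM1 (GSVIVT00003392001), -0.42 for COR413-PM2 (GSVIVT00013469001), 0.28 for CBF1 (GSVIVT00007410001) and 0.53 for ICE1 (GSVIVT00037942001).

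Among genes for regulators of ABA response and seed maturation, most of those found by words were lower after PHC. Of 8 found by words, all tested, 4 fell after P, 5 fell after HC and 6 fell after PHC, and 1 rose after HC and PHC. The study's own tables, which list genes changed in these same samples, hold 5 of the 8. Their gene names were used in the matching. The 4 that fell after P and the 5 that fell after HC were all among those 5. These counts and the median of the 8 are therefore not independent evidence of direction. Genes found by homolog were added after values had been seen. With them, P gave 6 lower of 29 tested (median -0.33), HC gave 6 (median -0.31) and PHC gave 16 (median -1.14). Called higher were 0, 1 and 2 of the 29. Over all tested probes, 0.572, 4.75 and 11.7% were lower and 2.75, 5.16 and 13.5% higher. For the 8, the median log2 change after PHC was -2.16, against -0.07 for all tested probes. ABI5 (GSVIVT00021625001), a transcription factor that activates LEA genes in Arabidopsis seeds, had -1.17 ± 0.20 after P (adjusted p = 0.0104), -1.11 ± 0.25 after HC (adjusted p = 0.00371) and -3.65 ± 0.60 after PHC (adjusted p = 5.98e-06). FUS3 (GSVIVT00037932001) had -1.37 ± 0.19, -2.11 ± 0.45 and -2.92 ± 0.18 (adjusted p = 0.00313, 5.98e-05 and 5.98e-06). The call of ABI5 after P was lost when any P array was left out, and all 4 calls after P were lost with normexp and median centring (-0.79 for ABI5, -0.91 for FUS3, -0.77 for XERICO and -0.78 for ATHB-12), as was that of ABI5 after HC (-0.89). After HC the call of ABI5 was also lost without HC replicate 3 (-0.98).

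XERICO (GSVIVT00029063001), a ubiquitin ligase that raises ABA levels in Arabidopsis, had -3.13 ± 0.12 after PHC (adjusted p = 2.55e-06), and ATHB-12 (GSVIVT00037197001), an ABA- and drought-induced homeobox gene, had -2.41 ± 0.33 (adjusted p = 5.98e-06). RD22-B (GSVIVT00016747001), named for its dehydration-induced homolog, was not well above background in Cy5 on any HC or PHC array. With the deposited signals it was at least 2.17-fold lower after HC and at least 2.61-fold lower after PHC. Its measured ratios were -1.69 and -1.90 (adjusted p = 0.00326 and 0.000742). These calls were lost with normexp, at -0.28 and -0.34 with loess, where the bounds do not hold either. The gene that rose was GSVIVT00003118001, annotated as GRAM domain-containing and ABA-responsive, with 1.22 ± 0.43 after HC (adjusted p = 0.00105) and 2.00 ± 0.34 after PHC (adjusted p = 2.68e-05).

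Genes of seed storage and oil body proteins went both ways. Of 22 found by words, all tested, 3 were lower and 3 higher after P, 3 and 3 after HC, and 5 and 4 after PHC, with a median log2 change after PHC of -0.32. The steroleosin-like GSVIVT00017972001 had -3.63 ± 0.28 after PHC (adjusted p = 6.29e-06) and basic 7S globulin (GSVIVT00019908001), taken as storage-type by its name only, had -2.55 ± 0.05 (adjusted p = 2.55e-06). Of the genes that rose, 3 carry a word of the list without being storage or oil body proteins: DC2.15 (GSVIVT00009623001) and GSVIVT00016962001, both proline-rich proteins of the cell wall type, and a sterol isomerase (GSVIVT00024612001). Their changes after PHC were 3.10 ± 0.45, 2.98 ± 0.16 and 3.43 ± 0.55 (adjusted p = 6.66e-05, 1.04e-05 and 1.64e-05). The other one, the lipid transfer-type GSVIVT00026377001, had 2.57 ± 2.80 and was not called without PHC replicate 1 (0.97). Genes of the list that fell or did not change were not sorted by function in this way. The words also matched hydroxysteroid dehydrogenase/isomerase, cupin and other lipid transfer-type genes among them. Chosen after their values were seen, an oleosin gene (GSVIVT00032135001) had -1.52 ± 0.31 after P, 0.02 ± 1.23 after HC and -2.42 ± 0.39 after PHC (adjusted p = 0.0332, 0.972 and 0.000597), and a caleosin-related gene (GSVIVT00030577001) had -0.54 ± 0.17, -1.66 ± 0.39 and -1.80 ± 0.22 (adjusted p = 0.0609, 0.000143 and 2.66e-05). Both are oil body proteins. The call of the oleosin gene after P was lost when any P array was left out.

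Genes of raffinose family sugars, which accumulate with LEA proteins in drying seeds, were found by their homolog only. Of 7, all tested in limma, 0 were called after P, with 3 at an unadjusted and 1 at an adjusted p under 0.05. The latter was GSVIVT00002727001, with -0.77 (adjusted p = 0.0216), less than 2-fold. After HC 1 was lower, and after PHC 2 were lower and 1 was higher. The homolog of GOLS4 (GSVIVT00002727001), a galactinol synthase and so of the first step of the pathway, had -1.26 ± 0.35 after HC (adjusted p = 0.000705, and -0.998 and not called with normexp and median centring) and -2.43 ± 0.29 after PHC (adjusted p = 1.01e-05). That of RS5 (GSVIVT00020687001), a raffinose synthase, had -1.38 ± 0.55 after PHC (adjusted p = 0.00256), a call lost with normexp (-0.96 with loess and -0.72 with median centring). That of SIP1 (GSVIVT00033467001) had 3.59 ± 0.64 after PHC (adjusted p = 0.00045). After P the SIP1 homolog had 1.89 ± 0.82 (adjusted p = 0.0523) and was not called, though it was called higher with either normexp setting and with a replicate block.

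**Figure D4:**
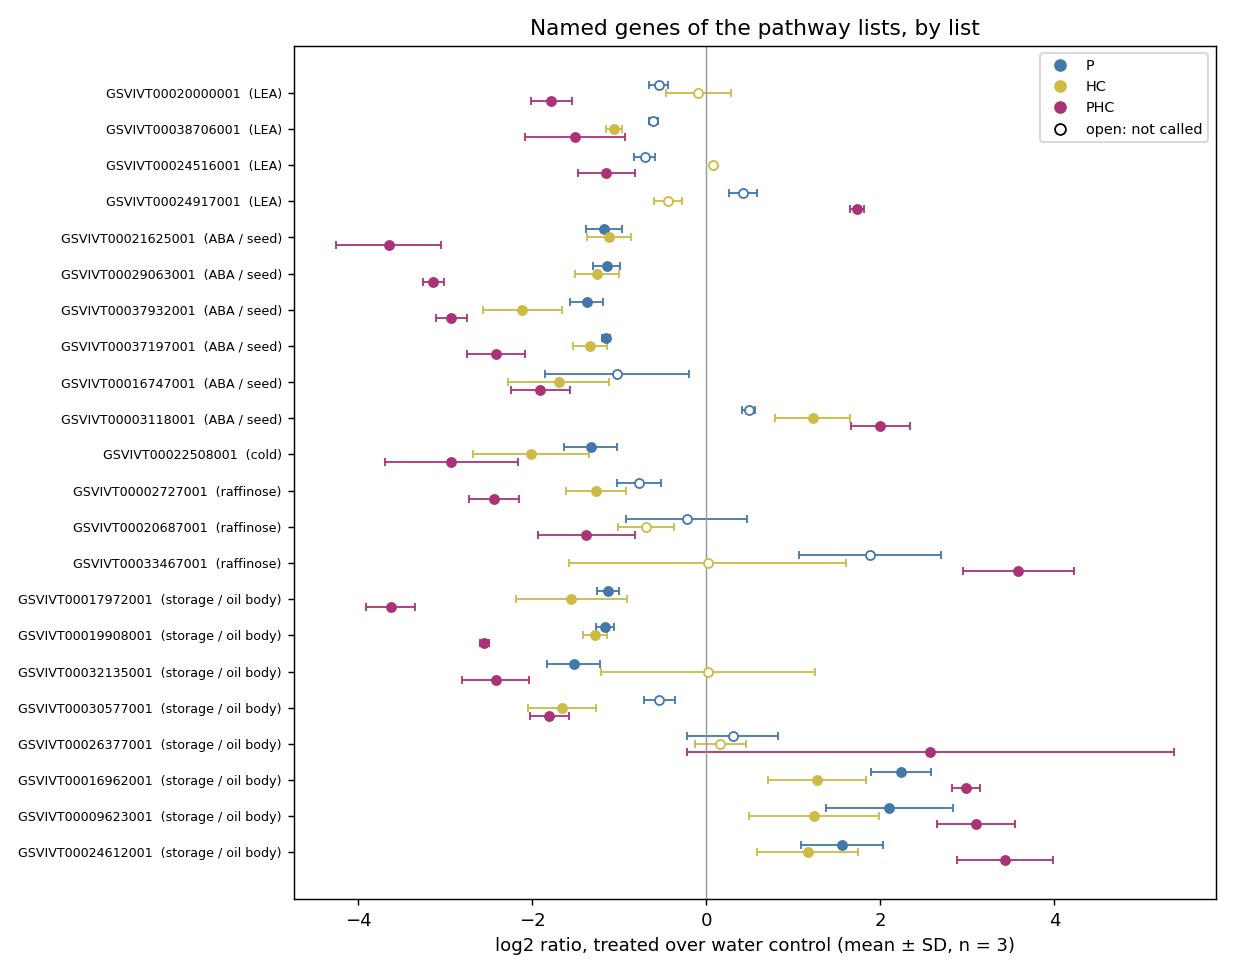
Mean log2 ratio and SD (n = 3) after P, HC and PHC for 22 genes of the LEA, cold, ABA and seed regulator, raffinose, and storage and oil body lists, filled where called at an adjusted p under 0.05 and at least 2-fold. Most lie left of 0 and farthest left after PHC, and 1 LEA-domain gene, 1 regulator, 1 raffinose-list gene and 4 of the storage list lie to the right after PHC. The genes were picked for the largest called changes, beside ABI5, FUS3 and LTI6A and the oleosin and caleosin-related genes added after values were seen. Their directions are therefore not those of the whole lists.

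Over these lists by words, without the 4 genes, 8 of 39 tested genes were called lower with P, 10 with HC and 15 with PHC, against 0.572, 4.75 and 11.7% of all tested probes. Called higher were 3, 4 and 6 of the 39, against 2.75, 5.16 and 13.5%. With normexp and median centring, those lower numbered 1 after P and 6 after HC. The study's own tables, made from the same samples, list 11 of these genes, which are therefore not independent evidence of their direction. Without those 11, the counts were 1, 2 and 7 of 28. When any P array was left out, the count after P was 4 of 39.

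Among markers of the tissue, 9 genes of bud and shoot meristem or of bud dormancy were found, and 8 or 9 of them were well above background in the control on each array. Of these, 3 were lower after PHC and 1 was higher. Their summed Cy5 over Cy3 signal, on the log2 scale, was -0.54 to -0.26 on the P arrays, -0.96 to -0.78 on the HC arrays and -2.43 to -1.90 on the PHC arrays, so that the sum was lowest after PHC. A sum weights bright genes most, and the median log2 change over the 9 genes was -0.35, -0.42 and -0.16, which was not lowest after PHC. The 3 that were lower were the homologs of DRM1 (GSVIVT00003066001), a dormancy-associated gene, with -2.20, a related dormancy and auxin gene (GSVIVT00022672001) with -2.60, and FUL (GSVIVT00000011001), a flowering gene, with -1.12. The 1 that was higher was the homolog of LFY (GSVIVT00018048001), a floral meristem gene, with 1.07. Meristem genes proper, the homologs of WUS (GSVIVT00036791001) and KNAT1 (GSVIVT00015017001), had -0.72 and 0.97, less than 2-fold. The summed ratio of 16 cell division genes was 0.54 to 0.81 after P, 0.22 to 0.72 after HC and 0.56 to 0.69 after PHC, and that of 14 photosynthesis genes was -0.13 to 0.01, -0.19 to 0.21 and -0.31 to -0.17. The median log2 change of the 16 cell division genes was 0.27, 0.20 and 0.57, highest after PHC. That of the 14 photosynthesis genes was -0.05, -0.10 and -0.19. The 1 gene found for vascular tissue was too dim to be tested. The part of a changed makeup of cells in the values of the 4 genes was not tested.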

How the data were processed

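The authors hybridised Cy5-labeled treated and Cy3-labeled control RNA to a custom Agilent array and extracted it with Feature Extraction 10.5. The deposited intensity values are linear signals per spot and channel, with background, and the deposited log2 values are the authors' ratios of Cy5 to Cy3 after background subtraction and rank-consistent LOWESS. The series table holds these ratios to fewer digits. Arrays were grouped by sample title. Control spots and 81 outlier values were left out, and the fit kept probes for which 1 treatment or more had, on its 3 arrays, a signal well above background in Cy3 or Cy5, leaving out 3733 of 30128. Log2 ratios of the 9 arrays were fitted in limma 3.58.1 (R 4.3.3), with 1 mean per treatment, no block and Benjamini-Hochberg adjustment over 26395 probes, and the script was tested on simulated data. The number of arrays limits the precision. The 4 genes and the lists were chosen with earlier results of these data known. Lists were matched by words in the annotation, and the extension by Arabidopsis homolog was added after values had been seen. Up to 6 called genes per list, of one sign on the 3 arrays, were named by the largest change, beside ABI5, FUS3 and LTI6A, and, for each of the 4 genes, the 3 most alike probes that carry an informative name. Names come from the study's additional files (438 probes) or from the homolog description (6981). The alternatives were normexp (offset 50) with loess or median centring, the series table, other filters, no fold limit, each treatment's own arrays, a block for replicate number, and leaving out single arrays. No sequences were used here.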

Additional observations from a re-analysis of the deposited data

Results flagged for a closer look

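Several of the other genes named differed between the combined and a single treatment in the fit itself (limma, adjusted p under 0.05 and at least 2-fold, n = 3 arrays each), which is why they are listed. PHC was lower than P by the following log2 differences: -1.23 for the LEA gene GSVIVT00020000001 (adjusted p = 0.00621), -2.47 for ABI5 (0.00184), -1.99 for XERICO (0.000637), -1.55 for FUS3 (0.00392), -1.26 for ATHB-12 (0.00395), -2.50 for the steroleosin-like GSVIVT00017972001 (0.00196), -1.38 for basic 7S globulin (0.00108), -1.66 for the GOLS4 homolog (0.0032) and -1.26 for the caleosin-related gene (0.00634). LTI6A also differed, by -1.60 (0.0296), where its PHC signal was below the level that counts as well above background and the call was lost with normexp, without any P array, and without PHC replicate 1 or 3. PHC was lower than HC by -1.69 for GSVIVT00020000001 (0.00156), -1.22 for the LEA-related GSVIVT00024516001 (0.0025), -2.53 for ABI5 (0.00127), -1.88 for XERICO (0.000857), -1.08 for ATHB-12 (0.00475), -2.08 for GSVIVT00017972001 (0.00223), -1.27 for basic 7S globulin (0.00114), -1.17 for the GOLS4 homolog (0.0077) and -2.44 for the oleosin gene GSVIVT00032135001 (0.0104).

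PHC was higher than P by 1.31 for the LEA-domain gene GSVIVT00024917001 (adjusted p = 0.00178), 1.51 for GSVIVT00003118001 (0.00501) and 1.87 for the sterol isomerase (0.0106). It was higher than HC by 2.18 for GSVIVT00024917001 (0.000622), 2.27 for the sterol isomerase (0.00379), 1.86 for DC2.15 (0.0177), 1.71 for the proline-rich protein GSVIVT00016962001 (0.00396) and 3.57 for the SIP1 homolog (0.00899). With normexp and median centring, the calls against P were lost for GSVIVT00020000001 (-0.80), FUS3 (-0.98), ATHB-12 (-0.94), basic 7S globulin (-0.96) and the caleosin-related gene (-0.93), and those against HC for GSVIVT00024516001 (-0.80), ATHB-12 (-0.61), basic 7S globulin (-0.71) and the GOLS4 homolog (-0.66). With normexp and loess those of GSVIVT00020000001 (-0.84) and FUS3 (-0.996) against P and of GSVIVT00024516001 (-0.90) against HC were lost. Against HC, the GOLS4 homolog was not called without HC replicate 1 (-0.97), ATHB-12 not without HC replicate 3 (-0.97) or PHC replicate 3 (-0.89), and DC2.15 not without PHC replicate 1 or 3 (1.63 and 1.86).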

How the results depend on the processing

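The mean changes of the 4 genes stayed below 0 under all alternatives except 1: that of GSVIVT00034564001 after HC was 0.10 without HC replicate 2, and it ranged from -0.82 to 0.10 with 1 array left out. With normexp and loess, DC-8-like (GSVIVT00021718001) moved to -1.04 after P and -1.81 after PHC, and GSVIVT00034564001 to -0.78 and -1.70. With normexp and median centring, EMB-1-like (GSVIVT00029315001) moved to -1.65 after P and -3.70 after PHC, DC-8-like to -1.19 and -2.02, GSVIVT00034564001 to -0.81 and -1.78, and lt101.2 (GSVIVT00023117001) to -0.87, with -1.48 after HC and -3.00 after PHC. The offset compresses ratios of dim probes by its construction, and for the bright probes the cause was not tested. The count of probes called fell to 529 after P and 1512 after HC with loess, and to 1647 after HC with median centring. The share of calls that were higher moved with that centring from 50.2 to 84.6% for PHC against P and from 61.6 to 89.1% for PHC against HC. With no fold limit, 3194, 8925 and 14681 probes were called after P, HC and PHC, 5759 for PHC against P and 7531 for PHC against HC. List genes lower after P numbered 1 with median centring and 6 after HC, in place of 8 and 10. The extension of the lists by homolog gave 29 lower after PHC in place of 15. It also added tested genes, so these counts have different totals and their rise is not a rise in share. Over all tested probes 11.7% were lower after PHC. With 1 array left out, list genes lower after P numbered 4 to 9, and the probes called numbered 256 (without P replicate 2) to 953 after P, with 546 without P replicate 3, and 1613 (without PHC replicate 3) to 2768 for PHC against P.

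The replicate numbers were checked for pairing: 8 of 9 same-number pairs of arrays had deviations correlated over 0.1 (0.00285 to 0.628), and 9 of 9 arrays correlated best with one of their own number. The study's methods lay the treatments out in 3 randomized blocks, without saying whether the array numbers are those blocks. With a replicate block, 995, 2729 and 6746 probes were called after P, HC and PHC in place of 876, 2616 and 6635. DC-8-like was then called after HC as well, from which nothing is read, since it was chosen on these ratios.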
